A study of Mus musculus with 4 samples.

Results

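Of 8585 cardiomyocyte nuclei in the deposited matrix, 743 (8.65%) carried the final population label CM5 together with the transferred label CM2, and these 743 nuclei are described here. They were chosen by both labels alone, and both labels were computed by the authors from the expression of these nuclei. They made up 73.1% of the 1017 CM5 nuclei and 91.1% of the 816 nuclei with the transferred label CM2. Of them, 268 came from the library WT-MI, 287 from KO-MI, 52 from WT-Sham and 136 from KO-Sham.

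The study used single-nucleus RNA sequencing (snRNA-seq) to ask how cardiomyocyte populations of the injured newborn mouse heart depend on Nrf1, a stress-response transcription factor whose gene is Nfe2l1. Both genotypes carried loxP-flanked Nrf1 alleles (Nrf1fl/fl). KO mice carried in addition a Cre transgene driven by the alpha myosin heavy chain (αMHC) promoter, which is active in cardiomyocytes, and WT mice did not. Myocardial infarction (MI), made by ligation of the left anterior descending artery, or Sham surgery was done at postnatal day 3, and tissue below the ligation plane was collected 1 day later. Several hearts of 1 genotype were pooled for each library. The strain labels of the libraries run from C57BL/6 to C57BL/9, whereas the methods give C57BL/6 as the background of the mice. With 1 library for each of WT-MI, KO-MI, WT-Sham and KO-Sham, replicates are lacking throughout. Every interval is an exact 95% interval that covers counting error only, and no p-value is given.

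Cardiomyocytes near an infarct lose part of their contractile and electrical programme and turn on stress genes, among them natriuretic peptides and proteins that anchor actin at the Z-disc and intercalated disc. In the neonatal mouse heart this border tissue can still be repaired. CM5 is the name of a population of cardiomyocytes that responds to injury, and its markers are Ankrd1, Xirp2, Nppb, Cd44, Enah and Flnc. CM1 is the most abundant population and serves as the comparison within each library.

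Depth was counted in unique molecular identifiers (UMIs, captured RNA molecules). The nuclei of the population held 1171093 UMIs from WT-MI, 1140204 from KO-MI, 192752 from WT-Sham and 378106 from KO-Sham. A level is the UMIs of a gene scaled to a total of 1000000 in the summed nuclei (CPM). The median nucleus of CM5 with the transferred label CM2 held 2660.5 to 4342.5 UMIs across libraries, and that of CM1 held 2632 to 4043.5. Mitochondrially encoded RNA took a median of 5.01 to 8.57 percent of UMIs in the former and of 5.05 to 8.78 percent in CM1. After each nucleus was thinned to 1000 UMIs, the median number of detected genes of the 743 nuclei was 616.5 to 643.5. In all, 9 barcodes occurred in more than 1 library, in 18 nuclei, and 3 of those nuclei were among the 743. In such sums, fewer nuclei that express a gene and less of its RNA per nucleus cannot be told apart.

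Nfe2l1, the targeted gene, was measured first because it bears on the genotype labels. Its level in the 743 nuclei was 53.8 CPM in WT-MI (63 UMIs), 55.3 CPM in KO-MI (63 UMIs), 72.6 CPM in WT-Sham (14 UMIs) and 34.4 CPM in KO-Sham (13 UMIs). KO over WT gave a log2 ratio of 0.04 (-0.49 to 0.57) after MI and of -1.08 (-2.29 to 0.12) after Sham. In CM1 the same ratios were 0.39 (0.14 to 0.63) and -0.20 (-0.44 to 0.03). No lower level was thus detectable in the library labelled KO-MI than in WT-MI. Which part of the gene the deletion removes is not given in the labels, and a UMI outside the deleted part does not check it. The methods state that mice were genotyped from the tail on the day of collection. KO-MI and KO-Sham are used below as the labels of these libraries.

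Each marker's gene lies on the GRCm38 assembly as follows. Ankrd1 (chr19:36111961-36120099, minus strand) encodes a cardiac ankyrin repeat protein of the sarcomere and nucleus. Xirp2 (chr2:67446002-67526614, plus strand) encodes an actin-binding protein of the intercalated disc. Nppb (chr4:147985788-147987205, plus strand) encodes B-type natriuretic peptide. Cd44 (chr2:102811141-102901665, minus strand) encodes a hyaluronan receptor at the cell surface. Enah (chr1:181896384-182019990, minus strand) encodes an actin regulator that favours filament elongation. Flnc (chr6:29433256-29461883, plus strand) encodes filamin C, an actin cross-linker of striated muscle. Xirp2 overlaps Gm13601, an antisense transcript on the other strand. The strand setting of the counting is not given in the sources used here. Whether reads of the pair were kept apart could thus not be checked. Enah and Cd44 also overlap other annotated genes.

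Promoter sequences of markers are shown because AP-1 and TEAD factors are known regulators of stress genes in cardiomyocytes. Each runs from 250 bases before to 50 bases after the start site (RefSeq, GRCm38.p6), 5′ to 3′ on the gene's strand. Capitals mark a match to the AP-1 motif TGANTCA or the TEAD motif CATTCC on either strand, where GGAATG is CATTCC read on the other strand. The windows are chr19:36119795-36120094 for Ankrd1, chr2:67445752-67446051 for Xirp2, chr4:147985650-147985949 for Nppb and chr6:29432903-29433202 for Flnc.
Ankrd1: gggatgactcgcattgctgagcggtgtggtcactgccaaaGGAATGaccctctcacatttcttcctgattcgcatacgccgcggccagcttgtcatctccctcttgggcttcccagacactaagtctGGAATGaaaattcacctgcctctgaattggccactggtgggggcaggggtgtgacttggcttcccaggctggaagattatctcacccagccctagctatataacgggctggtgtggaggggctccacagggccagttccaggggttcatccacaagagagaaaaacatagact
Xirp2: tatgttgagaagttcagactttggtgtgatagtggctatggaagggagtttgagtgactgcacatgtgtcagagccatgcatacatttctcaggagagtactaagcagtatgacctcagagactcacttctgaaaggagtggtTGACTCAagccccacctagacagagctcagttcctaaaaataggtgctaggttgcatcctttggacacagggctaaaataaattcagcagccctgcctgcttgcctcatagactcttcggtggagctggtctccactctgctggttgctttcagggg
Nppb: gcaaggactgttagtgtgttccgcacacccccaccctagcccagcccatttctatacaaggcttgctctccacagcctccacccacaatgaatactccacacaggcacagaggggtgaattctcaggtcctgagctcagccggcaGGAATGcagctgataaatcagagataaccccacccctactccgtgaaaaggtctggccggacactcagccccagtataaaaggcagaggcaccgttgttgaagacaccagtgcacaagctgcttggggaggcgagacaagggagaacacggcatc
Flnc: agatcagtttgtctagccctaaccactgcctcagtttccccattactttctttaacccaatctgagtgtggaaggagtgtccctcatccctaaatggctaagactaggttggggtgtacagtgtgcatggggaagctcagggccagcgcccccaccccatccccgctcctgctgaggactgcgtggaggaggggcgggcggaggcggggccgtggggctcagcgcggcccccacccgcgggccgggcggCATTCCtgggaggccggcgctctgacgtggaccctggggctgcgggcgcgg
The Ankrd1 promoter held 2 TEAD matches, starting 210 and 123 bases before the start site. Those of Nppb and Flnc held 1 TEAD match each, and that of Xirp2 held 1 AP-1 match, 107 bases before the start site. The promoters of Enah and Cd44 held neither motif. Of 32851 promoters in the RefSeq table, 7.81% held an AP-1 match and 14.7% a TEAD match. An AP-1 match stood in the promoter of 1 of the 6 markers and of 4 of the 14 genes with a promoter among 19 genes highest over CM1, and a TEAD match in 3 of 6 and 2 of 14. Other motifs were searched on both strands and are not marked above. The antioxidant response element TGANNNNGC, the core that Nrf1 and Nrf2 bind, stood in 41.3% of all promoters, 2 of the 6 and 6 of the 14. The CArG box bound by SRF stood in 1.63% of all promoters and in none of the 6 or the 14, and the MEF2 box stood in 3.19%, 1 of the 6 and 3 of the 14. Percentages of all promoters count promoters, while the 6 and the 14 count genes, which have 7 and 17 promoters. Ankrd1, Xirp2 and Enah belong to both sets. Matches are descriptions of letters and show no binding.

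The labels were set against the markers of both names, since the final and the transferred label differ. Mki67 and Top2a mark cycling cells. In the 743 nuclei Mki67 stood at 8.54 to 10.6 CPM across the 4 libraries and Top2a at 10.4 to 34.4 CPM. In nuclei with the final label CM2 the same genes stood at 183 to 306 CPM and 499.7 to 592 CPM. Of the 275 nuclei with the final label CM2, 197 (71.6%) had the transferred label CM5, and no nucleus had the same name in both label sets for CM2 or CM5. The names CM2 and CM5 are thus largely exchanged between the label sets, and the cycling genes of the 743 nuclei stood far below those of the final CM2, with CM1 at 12.0 to 13.2 CPM for Mki67 and 17.6 to 26.7 CPM for Top2a. Tnnt2, encoding cardiac troponin T, stood at 2427 CPM in WT-MI, 2713 CPM in KO-MI, 4104 CPM in WT-Sham and 4689 CPM in KO-Sham. The authors picked the cardiomyocyte clusters by this gene, so its presence in each library was fixed in advance and tests nothing.

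The transfer score measures from 0 to 1 how strongly the reference supported the label. Its median was 0.809 in WT-MI and 0.819 in KO-MI, against 0.588 in WT-Sham and 0.634 in KO-Sham. A score of 0.5 or more was reached by 95.1% and 93.4% of the MI nuclei and by 73.1% and 73.5% of the Sham nuclei. The second-highest label was CM1 in 213, 214, 45 and 109 nuclei of the 4 libraries in that order. The median score for CM1 itself was 0.108 and 0.0980 in the MI nuclei and 0.286 and 0.209 in the Sham nuclei.

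The share of nuclei in this population was higher after MI than after Sham under both genotype labels. It was 13.4% of WT-MI nuclei (11.9 to 14.9), 15.5% of KO-MI nuclei (13.9 to 17.3), 3.70% of WT-Sham nuclei (2.77 to 4.82) and 4.09% of KO-Sham nuclei (3.44 to 4.82). MI exceeded Sham by 9.68 percentage points (7.84 to 11.5) under the WT label and by 11.4 points (9.66 to 13.3) under the KO label. KO exceeded WT by 2.15 points after MI (-0.107 to 4.42) and by 0.388 points after Sham (-0.908 to 1.57), and both of these intervals include 0. Among CM5 nuclei alone, the population made up 79.1% of those from WT-MI, 80.8% from KO-MI, 58.4% from WT-Sham and 58.1% from KO-Sham. MI exceeded Sham here by 20.6 points (9.24 to 32.3) and 22.7 points (14.9 to 30.4), so the makeup of CM5 differed as well as its size. With 4 pools and no second pool of any group, the pool and the condition cannot be told apart.

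**Figure D1:**
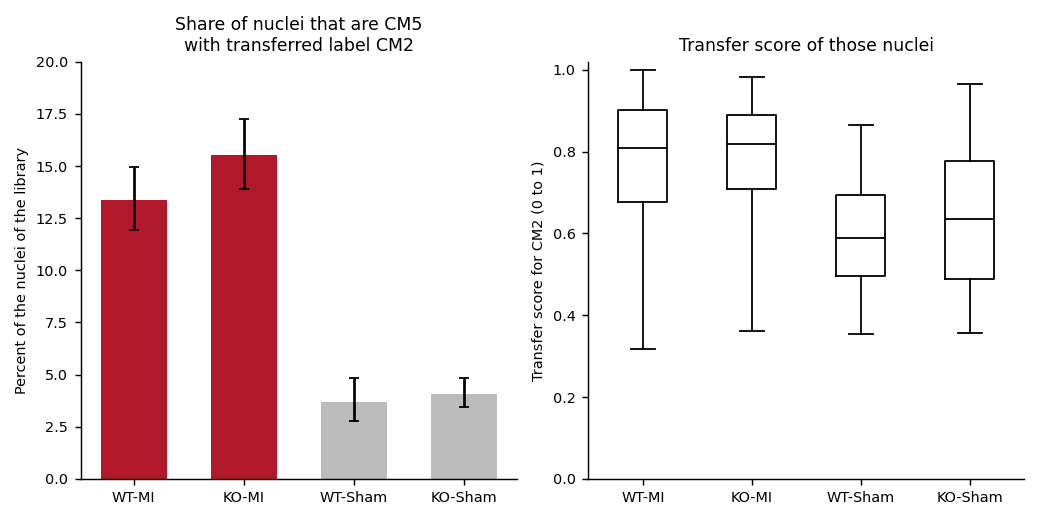
Left, percent of the nuclei of each library that are CM5 with transferred label CM2, with exact 95% intervals; right, the transfer score (0 to 1) of those nuclei by library, with the median, quartiles and full range. The MI libraries stand at 13.4% and 15.5%, the Sham libraries at 3.70% and 4.09%, and the median score is 0.809 and 0.819 in MI against 0.588 and 0.634 in Sham.

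All 6 markers were at least 2-fold higher than in CM1 in both MI libraries. The labels were computed from the expression of the same nuclei, so the values describe the population and test nothing. Ankrd1 stood at 4399 CPM in WT-MI, 4388 CPM in KO-MI, 830.1 CPM in WT-Sham and 1074 CPM in KO-Sham, and in CM1 at 1528, 1638, 158 and 198 CPM. The log2 ratio over CM1 was 1.52 (1.48 to 1.57) and 1.42 (1.37 to 1.47) in the MI libraries, and 2.39 (2.13 to 2.64) and 2.44 (2.27 to 2.60) in the Sham libraries. Ankrd1 was thus highest in level after MI, but its ratio over CM1 was larger after Sham, where CM1 stood far lower.

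Of the 6 markers, Xirp2 had the largest ratio over CM1 after MI. It stood at 2736 CPM in WT-MI, 2133 CPM in KO-MI, 125 CPM in WT-Sham and 140.2 CPM in KO-Sham, against 86.9, 66.3, 22.6 and 18.1 CPM in CM1. The log2 ratio of Xirp2 over CM1 was 4.98 in WT-MI and 5.01 in KO-MI. In Sham, where 24 and 53 UMIs were counted, it was 2.46 and 2.95, below the depth set for entering a gene. Gm13601, the antisense neighbour, followed it with 5.62 (5.23 to 6.05) and 5.24 (4.86 to 5.65) in the MI libraries.

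Nppb stood at 1563 CPM in WT-MI, 2041 CPM in KO-MI, 176 CPM in WT-Sham and 336 CPM in KO-Sham, against 736, 828, 40.2 and 105 CPM in CM1. Its log2 ratio over CM1 was 1.09 and 1.30 after MI and 2.13 (1.56 to 2.67) and 1.68 (1.40 to 1.95) after Sham, the WT-Sham value lying below the depth set for entering a gene. CM4, another cardiomyocyte population, stood at 1730 CPM in WT-MI and 2572 CPM in KO-MI for Nppb, above the population in both MI libraries, with overlapping intervals in WT-MI. In KO-Sham CM4 stood lower, at 151 CPM (124 to 181) against 336 CPM (280.0 to 399.6) in the population.

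Cd44 was counted mainly in the MI libraries. It stood at 233 CPM in WT-MI and 199 CPM in KO-MI, and at 5.19 CPM in WT-Sham (1 UMI) and 21.2 CPM in KO-Sham (8 UMIs). CM1 stood at 32.2, 23.1, 12.8 and 8.86 CPM for Cd44 in the same order. The log2 ratio over CM1 was 2.85 in WT-MI and 3.11 in KO-MI. At the depth of the Sham sums a difference in Cd44 was not detectable, where the ratio over CM1 rested on 1 and 8 UMIs.

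The actin regulators differed less from CM1 than Xirp2 did. Enah stood at 2776 CPM in WT-MI, 2735 CPM in KO-MI, 929 CPM in WT-Sham and 799 CPM in KO-Sham, with log2 ratios over CM1 of 1.85, 1.90, 1.09 and 1.17. Flnc stood at 454, 445, 109 and 97.9 CPM, with log2 ratios over CM1 of 2.16, 2.09, 1.05 and 0.60. For both genes all 4 libraries were above their own CM1, and the MI libraries were above the Sham libraries.

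**Figure D2:**
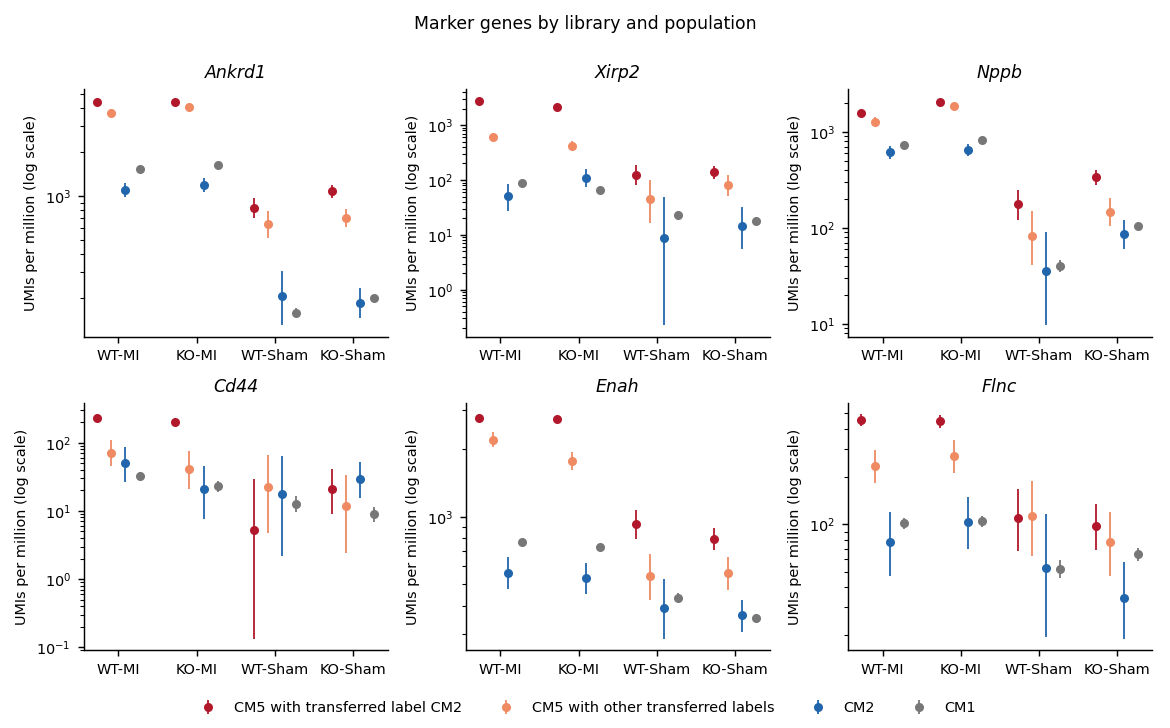
Level of each of the 6 markers (CPM, log scale) in each library for CM5 with transferred label CM2, CM5 with other transferred labels, CM2 and CM1; points are summed nuclei and bars exact 95% Poisson intervals. The members of the population stand highest of the 4 for each marker in both MI libraries, for Xirp2 at 2736 and 2133 CPM against 86.9 and 66.3 CPM in CM1.

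Most MI nuclei of the population carried several markers at once, and most Sham nuclei did not. With each nucleus thinned to 1000 UMIs, 3 or more of the 6 markers had a UMI in 83.6% of WT-MI nuclei (78.6 to 87.8), 78.4% of KO-MI nuclei (73.2 to 83.0), 13.5% of WT-Sham nuclei (5.59 to 25.8) and 14.0% of KO-Sham nuclei (8.63 to 21.0). In CM1 the same share was 25.5%, 26.5%, 0.547% and 1.15%. CM5 nuclei with other transferred labels reached 66.2% (54.0 to 77.0), 73.5% (61.4 to 83.5), 5.41% and 6.12%. Several markers at once were thus common in those MI nuclei too. The median nucleus of the population carried 4 markers in each MI library and 1 in each Sham library, against 2, 2, 0 and 1 in CM1. In CM5 nuclei with other transferred labels the medians were 3, 3, 1 and 1. Among the Sham nuclei of the population, 26.9% in WT-Sham and 18.4% in KO-Sham had none of the 6 at this depth. Only cardiomyocyte nuclei were analysed here, so no cell type that should lack these genes gives a background share.

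**Figure D3:**
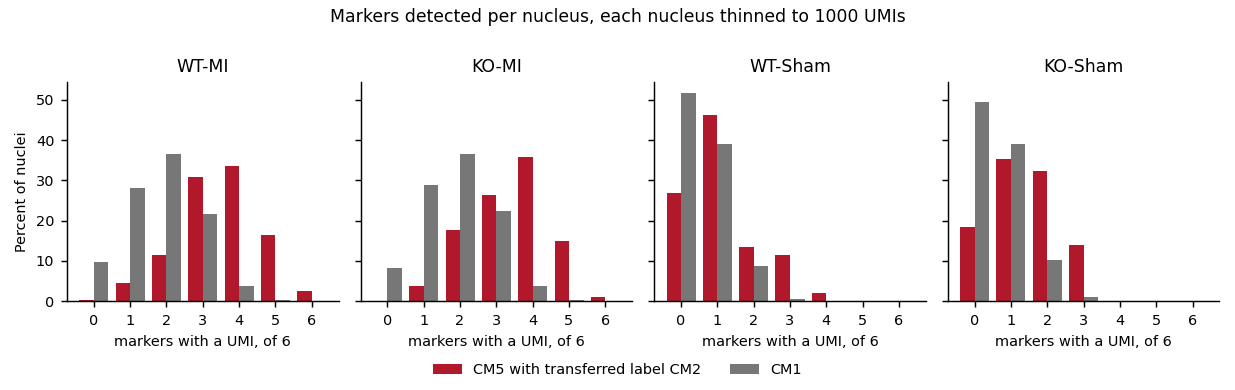
Percent of nuclei (vertical axis) by the number of the 6 markers with a UMI (horizontal axis), each nucleus thinned to 1000 UMIs, for CM5 with transferred label CM2 and for CM1, 1 panel per library. In the MI libraries the population has a median of 4 markers and CM1 of 2; in the Sham libraries the medians are 1 and 1 against 0 and 1.

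The markers were spread unevenly over nuclei. Of the Xirp2 UMIs, 50% lay in 18 of 268 nuclei in WT-MI and in 16 of 287 in KO-MI, with up to 343 and 149 UMIs in 1 nucleus, while 72 and 103 nuclei had none. For Ankrd1, 50% of the UMIs lay in 75 and 74 nuclei of the MI libraries, and 6 and 6 nuclei had none. In Sham the Ankrd1 level rested on few nuclei: 50% of its UMIs lay in 6 of 52 nuclei in WT-Sham and in 21 of 136 in KO-Sham. Enah, with 50% of UMIs in 72 and 69 nuclei, was spread like Ankrd1. After thinning, Xirp2 had a UMI in 57.1% and 44.6% of MI nuclei (73.1% and 64.1% unthinned), and in CM1 in 7.8% and 6.2% (23.0% and 18.7% unthinned). Ankrd1 had a thinned UMI in 89.9% and 89.2% of the same nuclei (97.8% and 97.9% unthinned), so it was detected more widely than Xirp2.

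MI nuclei with and without a thinned Xirp2 UMI were set side by side, 153 against 115 in WT-MI and 128 against 159 in KO-MI. Enah was higher with Xirp2 by 0.32 (0.22 to 0.43) and 0.39 (0.29 to 0.50) on the log2 scale. The remaining markers were less even between the libraries. Ankrd1 was at 0.07 (-0.01 to 0.15) in WT-MI and 0.23 (0.15 to 0.31) in KO-MI, and Nppb at 0.13 (-0.01 to 0.26) and 0.68 (0.56 to 0.80). Cd44 was at 0.51 (0.14 to 0.88) and 0.34 (-0.05 to 0.73), and Flnc at 0.69 (0.42 to 0.96) and 0.16 (-0.10 to 0.42). Inhba, encoding the beta A subunit of activin, was higher by 0.87 and 0.86, and Creb5, a transcription factor, by 0.28 and 0.55. Myh6, the alpha myosin heavy chain of the mature ventricle, was lower by log2 ratios of -0.22 and -0.22. Ndrg1, a hypoxia-responsive gene, differed in opposite directions in the 2 libraries, at -1.01 in WT-MI and 1.0 in KO-MI, and Sema3e did the same at -1.01 and 1.25. The median transfer score was 0.836 with Xirp2 against 0.785 without it in WT-MI, and 0.832 against 0.807 in KO-MI.

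Over all genes deep enough to compare, 314 of 8825 (3.56%) were at least 2-fold higher than CM1 in both MI libraries and 517 (5.86%) at least 2-fold lower. With TMM scaling, which shifts ratios to centre most genes, the counts were 268 and 592. In both Sham libraries 10 of 3283 genes (0.305%) were higher and 24 (0.731%) lower, or 6 and 28 with TMM scaling. A gene entered where 10 UMIs would be expected in the smaller sum with no difference. The expectation pools the UMIs of both sums, so a gene can enter through the sum in which it is high. Of the 3283 genes deep enough in all 4 libraries, 72 were higher in MI and 8 of these were also among the 10 in Sham, which is 11.1% of the MI list and 80.0% of the Sham list. For lower genes 279 in MI and 24 in Sham shared 16, which is 5.73% and 66.7%.

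The 10 genes that stood highest over CM1 in all 4 libraries, ranked by their interval bounds, were Creb5, Ankrd1, Sorbs2, Enah, Sorbs2os, March3, Tox3, Nrap, Lrrc2 and Pakap.1. Creb5 stood at 1331 CPM in WT-MI, 1182 CPM in KO-MI, 695 CPM in WT-Sham and 659 CPM in KO-Sham, and its log2 ratio over CM1 of 2.01, 1.97, 1.86 and 2.04 was nearly the same in the 4 libraries. Sorbs2, encoding a Z-disc adaptor that binds actin regulators, was higher by 1.29, 1.32, 0.97 and 1.08. Whether its UMIs were kept apart from those of the overlapping Sorbs2os could not be checked. Nrap, encoding an adaptor of myofibril assembly at the intercalated disc, was higher by 1.20, 1.09, 1.56 and 0.96. Lrrc2 was higher by 2.35 and 2.51 in the MI libraries and by 1.26 and 1.36 in the Sham libraries.

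In the MI libraries alone, Gm13601, Xirp2, Sema3e, Tnfrsf23, Inhba, Ryr3, Atf3, Morrbid and Adam12 were among the 10 highest genes. Inhba stood at 165 CPM in WT-MI and 180 CPM in KO-MI against 14.8 and 16.7 CPM in CM1, log2 ratios of 3.47 (3.10 to 3.86) and 3.43 (3.06 to 3.80). Atf3, a stress-induced transcription factor, stood at 69.2 and 89.5 CPM against 5.69 and 5.82 CPM, log2 ratios of 3.60 and 3.94. In Sham these genes were close to the limit of counting: Inhba had 7 and 3 UMIs, and Atf3 had 1 and 8. Ryr3, encoding a ryanodine receptor isoform that is minor in heart, had a log2 ratio of 3.50 in both MI libraries, and Adam12, a metalloproteinase that releases growth factors from the membrane, of 3.54 and 3.81. Sema3e, encoding a secreted guidance cue, had ratios of 5.72 and 6.13, and 70.6% and 51.7% of its UMIs lay in 10 nuclei of each library. The same share was 57.5% and 53.3% for Adam12, 49.0% and 53.2% for Ryr3, 47.1% and 52.6% for Tnfrsf23, and 45.7% and 50% for Atf3.

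The lowest genes against CM1 in all 4 libraries were Angpt1, Pdzrn4, Acss3, Gm30382, Fgf14, Fign, Adamts6, Kcnj3, Nr3c2 and Trabd2b. Angpt1, encoding the vascular ligand angiopoietin 1, stood at 6.83 CPM in WT-MI, 3.51 CPM in KO-MI, 31.1 CPM in WT-Sham and 34.4 CPM in KO-Sham against 89.0, 87.6, 234 and 166 CPM in CM1. Its log2 ratios were -3.70, -4.64, -2.91 and -2.27. Nr3c2, encoding the mineralocorticoid receptor, was lower by ratios of -3.16, -2.99, -1.10 and -1.05, and Kcnj3, encoding a subunit of the acetylcholine-gated potassium channel, by -6.19 (-11.50 to -3.71), -3.83, -1.92 and -1.28, with 1, 5, 7 and 18 UMIs. Fgf14, which modulates sodium channels, was lower by -3.84, -3.13, -1.80 and -1.51. For each of these 4 genes both MI ratios lay below both Sham ratios.

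Other genes were low mainly in the MI libraries. Rbfox1, a splicing regulator of muscle, stood at 47.8 CPM in WT-MI and 54.4 CPM in KO-MI against 707 and 584 CPM in CM1, log2 ratios of -3.89 and -3.42, while in Sham its ratios were -0.65 and -1.11. Kcnip2, the subunit of the transient outward potassium channel that modulates its gating, had ratios of -4.18 (-6.46 to -2.62) and -4.39 (-7.45 to -2.52) after MI, on 3 and 2 UMIs, and -0.49 (-1.37 to 0.27) and -0.48 (-1.22 to 0.18) after Sham. Rxfp1, the relaxin receptor, had ratios of -4.98 (-7.27 to -3.43) and -5.41 (-8.46 to -3.55) after MI, on 3 and 2 UMIs, and -0.84 and -0.61 after Sham, and both Sham intervals include 0. Map2k6, a kinase upstream of p38, had ratios of -4.85 (-7.90 to -2.99) and -4.65 (-7.71 to -2.79) after MI, on 2 UMIs in each library, and -1.84 and -1.28 after Sham.

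**Figure D4:**
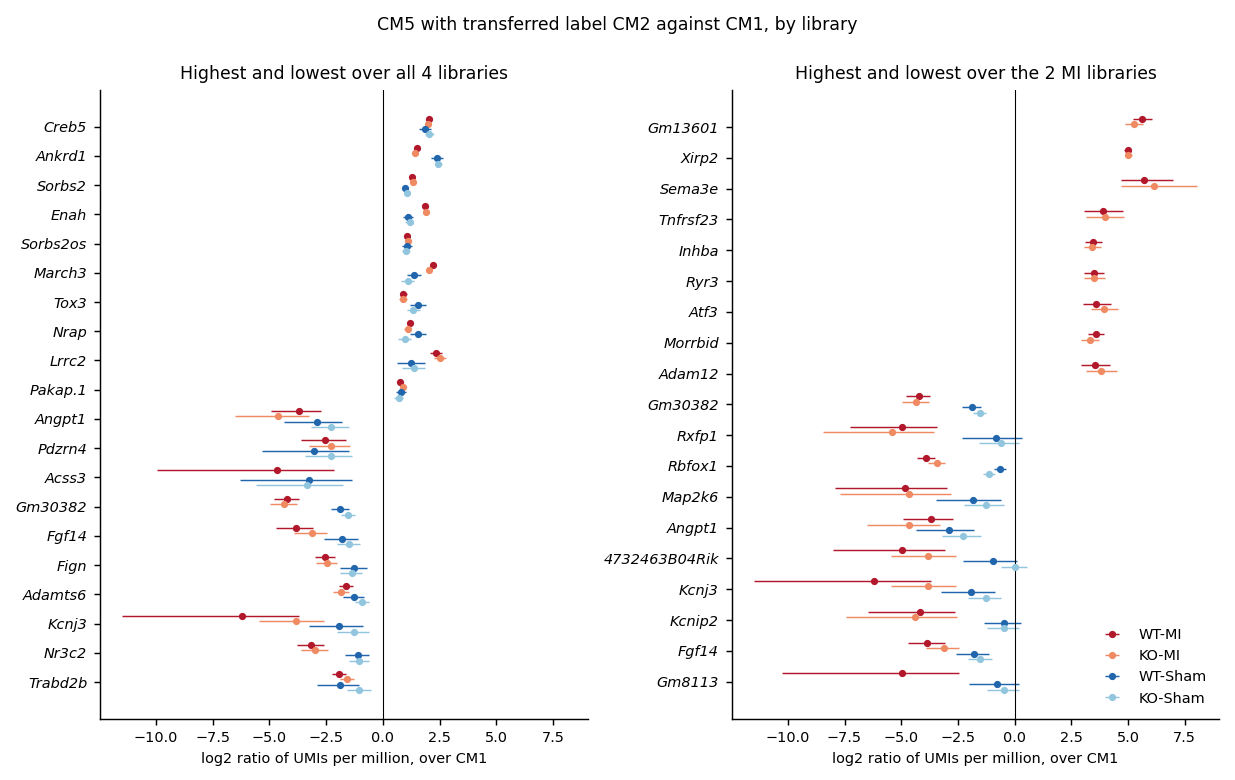
Log2 ratio of CM5 with transferred label CM2 over CM1 in the same library (horizontal axis) for the highest and lowest genes over all 4 libraries (left) and over the 2 MI libraries (right); points by library, bars exact 95% intervals, genes with 0 UMIs or too few UMIs left out. Creb5 lies between 1.86 and 2.04 in all 4 libraries, and Xirp2 reaches 4.98 and 5.01 in the MI libraries.

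Gene lists were summarised by their median log2 ratio over CM1, given below in the order WT-MI, KO-MI, WT-Sham and KO-Sham. Each median covers the list genes entered in that library, so MI and Sham medians can rest on different genes. Of the stress and hypertrophy list, for example, 15 genes entered in both MI libraries and 6 in both Sham libraries. The median over all genes entered was -0.04, 0.02, -0.04 and -0.03, and TMM scaling moved each ratio by -0.05, -0.11, -0.09 and -0.06.

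Part of the stress and actin genes were higher in the MI libraries, where 3.56% of all genes were. Among 15 entered stress and hypertrophy genes, with medians of 0.89, 1.13, 0.49 and 0.45, 6 were at least 2-fold higher in both MI libraries and none lower: Clu, Tnfrsf12a, Gdf15, Hbegf, Fhl1 and Lmcd1. Hbegf, a heparin-bound growth factor of the EGF family, stood at 143 CPM in WT-MI and 224 CPM in KO-MI against 19.7 and 21.2 CPM in CM1, log2 ratios of 2.87 and 3.40. Tnfrsf12a, the receptor of the cytokine TWEAK, had ratios of 1.37 and 1.28, and Gdf15, a secreted stress factor, of 1.84 and 2.27. For Gdf15, 50% of the UMIs in WT-MI and 60% in KO-MI lay in 10 nuclei. Among 29 actin and adhesion genes, with medians of 0.71, 0.80, 0.04 and 0.19 (the WT-Sham value is -0.05 with TMM scaling), 7 were higher and none lower, among them Actn1, Myh9, Itga5, Lims2, Msn and Anxa2. Actn1, the non-muscle alpha-actinin, stood at 695 and 677 CPM after MI against 113 and 118 CPM in CM1, log2 ratios of 2.62 and 2.52, and had ratios of 0.00 and 0.66 after Sham. Itga5, the fibronectin receptor subunit, was higher in all 4 libraries, by 2.0, 2.11, 1.04 and 1.25.

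Genes induced early after injury and Hippo targets gave part of the same pattern. Of 22 listed early genes 11 entered. Of these, 5 were at least 2-fold higher in both MI libraries, against 3.56% of all genes: Fosl2, Junb, Atf3, Klf6 and Ier3. A gene can enter through the sum in which it is high, so this share is a description and not a test. Fosl2 and Junb, subunits of AP-1, had log2 ratios of 1.65 and 2.0, and of 1.52 and 1.22. Of 15 entered Hippo pathway genes, with medians of 0.54, 0.19, -0.17 and -0.01, 4 were higher: Ccn2, Ccn1, Amotl1 and Axl. The KO-MI median is -0.02 when nuclei are thinned to 1000 UMIs. Ccn2, a matricellular target of YAP and TEAD, stood at 681 CPM in WT-MI and 682 CPM in KO-MI against 136 and 149 CPM in CM1, log2 ratios of 2.32 and 2.19. With 17 and 39 UMIs, Ccn2 stood at 88.2 and 103 CPM in Sham against 6.26 and 11.7 CPM in CM1. On these counts, below the depth set for entering a gene, its ratio over CM1 was larger after Sham than after MI. The Sham medians of the list leave Ccn2 out. Ccn1 had ratios of 2.84 and 3.07 after MI.

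Glucose and oxygen genes split. Of 25 entered glycolysis and hypoxia genes, with medians of 0.37, 0.29, 0.09 and -0.01, 7 were higher in both MI libraries and 2 lower. With TMM scaling the WT-Sham median is -0.01. Slc2a1, the basal glucose transporter GLUT1, stood at 130 CPM in WT-MI and 169 CPM in KO-MI against 18.3 and 22.5 CPM in CM1, log2 ratios of 2.83 and 2.91, and Slc2a4, the insulin-sensitive transporter GLUT4, was 1 of the 2 lower genes with Pfkm. Hk2, the first enzyme of glycolysis in muscle, had ratios of 1.63 and 1.5, Bnip3, a hypoxia-responsive mitophagy receptor, of 1.91 and 1.70, and Ndrg1 of 3.52 and 3.17. For Ndrg1, 49.3% of the UMIs in WT-MI and 45.8% in KO-MI lay in 10 nuclei. In Sham, Slc2a1 had 0 and 7 UMIs and Ndrg1 0 and 2. A count of 0 in WT-Sham allows a level of up to 15.6 CPM, which is 3 UMIs.

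The genes of fatty acid use were lower in the MI libraries. Of 31 genes, with medians of -0.83, -0.90, -0.06 and -0.08, 10 were at least 2-fold lower in both and none higher, against 5.86% of all genes: Cd36, Acsl1, Cpt1a, Cpt1b, Ppara, Ppargc1a, Ppargc1b, Esrrb, Esrrg and Ucp3. The Sham medians were 0.03 and 0.08 with nuclei thinned to 1000 UMIs. Cd36, the fatty acid transporter, stood at 145 CPM in WT-MI, 159 CPM in KO-MI, 643 CPM in WT-Sham and 550.1 CPM in KO-Sham against 497, 533, 792 and 756 CPM in CM1. Ppara and Ppargc1a, the nuclear receptor and coactivator that drive these genes, had log2 ratios of -2.21 and -2.19, and of -1.77 and -1.74, after MI.

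The nuclear-encoded subunits of the respiratory chain had no member past 2-fold against CM1. Their medians over 76 or 77 genes were -0.23, -0.13, 0.27 and 0.06, and the KO-Sham value turns to -0.00 with TMM scaling. The medians of 76 cytosolic ribosomal genes, 36 proteasome genes and 20 or 21 antioxidant genes lay between -0.09 and 0.15 in both MI libraries, and TMM scaling turns the sign of the ribosomal value in KO-MI to -0.04 and of the proteasome value in WT-MI to -0.03. Txnrd1 and Gclc, antioxidant enzymes that are known targets of CNC factors, were the 2 antioxidant genes past 2-fold. Txnrd1 stood at 108 CPM in WT-MI and 115 CPM in KO-MI against 35.2 and 37.0 CPM in CM1, log2 ratios of 1.62 and 1.63, and Gclc had ratios of 1.15 and 1.11.

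Part of the electrical and signalling genes were lower in both MI libraries, where 5.86% of all genes were. Of 20 entered ion channel and junction genes, with medians of -1.17, -0.99, -0.47 and -0.39, 10 were at least 2-fold lower in both MI libraries: Kcnj2, Kcnj3, Kcnj5, Kcnd2, Kcnip2, Kcnh2, Kcnn2, Abcc9, Ank2 and Fgf13. In Sham 2 were lower, Kcnj3 among them. Kcnd2, a pore subunit of the transient outward current, stood at 55.5 CPM in WT-MI and 120 CPM in KO-MI against 250 and 244 CPM in CM1, log2 ratios of -2.17 and -1.02. Of its UMIs in the population, 49.2% in WT-MI and 59.1% in KO-MI lay in 10 nuclei. Of 15 entered adrenergic genes, with medians of -0.80, -0.69, -0.14 and -0.19, 6 were lower in MI: Adra1b, Adcy5, Pde4b, Pde4d, Pde1c and Prkaca. Adcy5, a main adenylyl cyclase of heart muscle, had ratios of -1.81 and -1.87.

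Of 17 calcium handling genes, 3 were lower in both MI libraries. Ryr2, the calcium release channel, stood at 3327 CPM in WT-MI, 3098 CPM in KO-MI, 7865 CPM in WT-Sham and 6834 CPM in KO-Sham against 7636, 7071, 9691 and 8090 CPM in CM1, log2 ratios of -1.20, -1.19, -0.30 and -0.24. CM4 stood lower still after MI, at 3090 CPM in WT-MI, with overlapping intervals, and 2383 CPM in KO-MI. CM5 nuclei with other transferred labels stood at 4592 and 3878 CPM. Pln, the inhibitor of the calcium pump, and Cacna1c, the pore of the L-type channel, had ratios of -1.20 and -1.12, and of -1.11 and -1.33, after MI. Of 10 core cardiac transcription factors, with medians of -0.70, -0.89, -0.16 and -0.26, Tbx5, Prox1 and Irx4 were lower. Among 28 sarcomere genes Pdlim3 and Pdlim7 were higher and Fhl2 lower, close to the 3.56% and 5.86% of all genes, with medians of -0.12, -0.17, 0.22 and 0.17. Myh6 stood at 2865 CPM in WT-MI and 3305 CPM in KO-MI against 5809 and 6300 CPM in CM1, log2 ratios of -1.02 and -0.93, and at ratios of 0.11 and 0.10 in Sham.

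**Figure D5:**
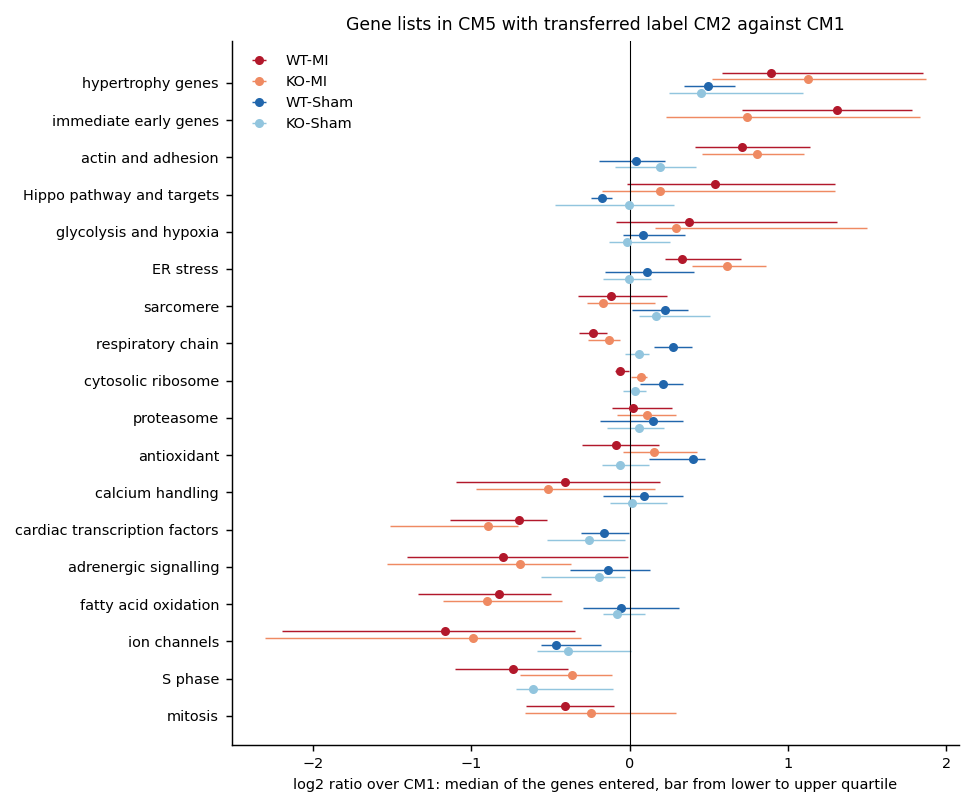
Median log2 ratio over CM1 (horizontal axis) of 18 gene lists, by library, each over the genes entered in that library, with bars from their lower to their upper quartile. In the MI libraries the fatty acid list stands at -0.83 and -0.90 and the hypertrophy list at 0.89 and 1.13; in Sham the fatty acid list stands at -0.06 and -0.08, with signs that turn when nuclei are thinned.

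Single members of other lists also passed 2-fold in both MI libraries. Osmr, the oncostatin M receptor, was higher by log2 ratios of 1.98 and 1.78, while Lifr, the related receptor of leukaemia inhibitory factor, was lower at -1.58 and -1.26. Cdkn1a, the cell cycle brake p21, was higher at 1.60 and 1.45. Neat1, a long RNA that builds nuclear paraspeckles, stood at 1363 CPM in WT-MI, 1183 CPM in KO-MI, 150 CPM in WT-Sham and 272 CPM in KO-Sham, with ratios of 1.95, 2.04, -0.05 and 1.18. Among 13 entered DNA replication genes the medians were -0.74 in WT-MI and -0.36 in KO-MI, and among 6 mitosis genes -0.41 and -0.25. No gene of these 2 lists was 2-fold higher in both MI libraries.

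The nuclei after MI and after Sham were then compared directly. Of 3256 genes, 269 (8.26%) were at least 2-fold higher in MI under both genotype labels and 174 (5.34%) lower. TMM scaling moves the WT ratios by 0.25 and the KO ratios by 0.04 and gives 325 and 120. Xirp2 was the highest gene when ranked by its interval bounds, with log2 ratios of MI over Sham of 4.46 (3.88 to 5.10) under the WT label and 3.93 (3.54 to 4.35) under the KO label, against 1.94 and 1.87 in CM1. Nppa, encoding atrial natriuretic peptide, stood at 3495 CPM in WT-MI, 5193 CPM in KO-MI, 244 CPM in WT-Sham and 770 CPM in KO-Sham, ratios of 3.84 and 2.75, against 3.73 and 3.21 in CM1. Ccn1 had ratios of 4.48 (2.61 to 7.53) and 4.00, with 2 and 6 UMIs in Sham, against 2.90 and 2.09 in CM1. For Ankrd1 the ratios of 2.41 and 2.03 were smaller than the 3.27 and 3.05 of CM1, and for Nppb 3.15 and 2.60 were smaller than 4.19 and 2.98. Spp1, encoding osteopontin, had 248 and 244 UMIs after MI and 0 and 1 after Sham, which is at least a log2 ratio of 3.77 under the WT label when a count of 0 is set to 3 UMIs in the library.

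Of 14 entered stress and hypertrophy genes, 10 were at least 2-fold higher after MI under both labels, and of 24 actin and adhesion genes 9 were, against 8.26% of all genes. Of 23 fatty acid genes 17 were lower, against 5.34% of all genes, and of 75 nuclear respiratory chain genes 22 were lower. Medians of the fatty acid list were -1.36 and -1.47 in the population against -0.49 and -0.60 in CM1. Those of the respiratory chain list were -0.88 and -1.19 against -0.39 and -0.98 in CM1. Each median covers the genes entered in its own comparison. Over all genes 3258 and 5471 entered in the population and 12313 and 12763 in CM1. Pln stood at 373 CPM in WT-MI, 403 CPM in KO-MI, 1722 CPM in WT-Sham and 1997 CPM in KO-Sham, log2 ratios of -2.21 and -2.31 against -1.10 and -1.33 in CM1. Rbfox1 had ratios of -3.77 and -2.70 against -0.54 and -0.39 in CM1. Rnf207, which regulates a cardiac potassium channel, had -2.73 and -3.01 against -0.58 and -0.21, and Myh7b, a slow myosin gene, had -2.68 and -2.99 against -0.51 and -0.25. The difference between the population and CM1 in these ratios was not tested, and both use different nuclei of the same pools.

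Genotype labels were compared within each surgery. After MI, 244 of 8948 genes (2.73%) were at least 2-fold higher in the library labelled KO-MI and 118 (1.32%) lower. After Sham 71 of 3187 (2.23%) were higher in the library labelled KO-Sham and 72 (2.26%) lower. TMM scaling, which moves these ratios by -0.07 and 0.13, gives 184 and 147 after MI and 110 and 45 after Sham. None of the 6 markers passed 2-fold between the MI libraries. KO over WT gave log2 ratios of 0.00 for Ankrd1, -0.36 for Xirp2, 0.38 for Nppb, -0.23 for Cd44, -0.02 for Enah and -0.03 for Flnc. In CM1 the same ratios were 0.10, -0.39, 0.17, -0.48, -0.07 and 0.04. In the population the level intervals of Xirp2 did not overlap, at 2642 to 2832 CPM in WT-MI and 2049 to 2219 CPM in KO-MI. Those of Nppb did not overlap either, at 1493 to 1637 CPM in WT-MI and 1959 to 2126 CPM in KO-MI.

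Nppa was the highest gene under the KO label over both surgeries when ranked by interval bounds, by log2 ratios of 0.57 (0.51 to 0.63) after MI and 1.66 (1.21 to 2.13) after Sham, against 0.28 and 0.79 in CM1. In Sham, 76.6% of the Nppa UMIs of WT-Sham and 71.5% of those of KO-Sham lay in 10 nuclei. Fabp3, the fatty acid binding protein of heart, was higher by 0.47 and 0.69 against 0.32 and 0.92 in CM1, and Atp5j2, a subunit of ATP synthase, by 0.52 and 0.72 against 0.26 and 0.85. The median of the 77 respiratory chain genes was 0.30 after MI and 0.61 after Sham, against 0.23 and 0.83 in CM1. Rgs6, a regulator of G protein signalling, was lower under the KO label at -0.69 and -1.25 against -0.19 and -0.40 in CM1, and Bcl2, the survival factor, at -0.60 (-0.90 to -0.31) and -1.19 (-2.04 to -0.36) against -0.12 and 0.00. The Sham ratio of Bcl2 rests on 28 and 24 UMIs.

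Proteasome genes are known targets of Nrf1. The 36 entered proteasome genes had a median log2 ratio of KO over WT of -0.05 after MI, and the 22 entered after Sham had 0.07. Psmd1, a subunit of the proteasome cap, was lower at -0.66 (-1.03 to -0.29) after MI, against -0.60 (-0.78 to -0.42) in CM1, and stood at 0.03 (-0.83 to 0.93) after Sham. Hmox1, encoding heme oxygenase 1, had 42 UMIs in WT-MI and 19 in KO-MI, a ratio of -1.11 (-1.97 to -0.29), against -0.70 in CM1. Of these Hmox1 UMIs, 64.3% in WT-MI and 68.4% in KO-MI lay in 10 nuclei, and 25 and 16 nuclei had any. Nfe2l2, which encodes the related factor Nrf2, stood at -0.02 (-0.40 to 0.35). Hsp90b1, a chaperone of the endoplasmic reticulum, stood at 184 CPM in WT-MI and 375 CPM in KO-MI, a ratio of 1.03 (0.79 to 1.27) against 0.10 (-0.03 to 0.24) in CM1, and -0.47 after Sham.

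Several of the genes ranked highest under the KO label after MI rested on few nuclei. All 63 Nrxn3 UMIs of KO-MI lay in 8 nuclei (log2 ratio 3.21), and 89.4% of the Kirrel3 UMIs and 76.3% of the Ebf1 UMIs lay in 10 nuclei (ratios 2.08 and 1.97). Those lowest were Adamtsl4, Stfa2, Stfa1, S100a8 and Saa3. S100a8, a neutrophil gene, stood at 183 CPM in WT-MI and 68.4 CPM in KO-MI, a ratio of -1.42, against -1.12 in CM1, and Stfa1, which has near-identical copies, at -1.91 against -1.03. Xist was higher under the KO label at 0.54 and 2.90 (0.65 and 2.27 in CM1), and Uty, on the Y chromosome, lower at -1.16 and -1.39 (-1.22 and -0.95 in CM1), so these sex-linked genes moved with the genotype label. Their part in the other differences was not tested.

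The population was also compared with the other CM5 nuclei, whose transferred label was CM1, CM3 or CM4. In the MI libraries 44 of 4109 genes (1.07%) were at least 2-fold higher in the population than in these, and 15 (0.365%) lower. Xirp2 was higher by log2 ratios of 2.16 (1.94 to 2.38) and 2.34 (2.07 to 2.63), Cd44 by 1.70 and 2.25, Ndrg1 by 2.97 and 2.77, and Gipr, the receptor of an incretin hormone, by 2.28 and 3.42. Ankrd1 and Nppb barely separated the groups, at 0.24 and 0.10 and at 0.29 and 0.13. Thsd4, a microfibril protein, was lower at -2.38 and -2.58, Meg3, a long RNA, at -2.21 and -1.76, and Tnni3k, a cardiac kinase, at -1.15 and -1.19. In Sham, Tnni3k stood at 0.21 and 0.23, and Xirp2 at 1.46 (0.13 to 3.04) and 0.78 (0.03 to 1.58). 

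RNA of other cell types was measured in the same sums. Red blood cell genes (6) summed to 1634 to 3203 CPM in the population and 1892 to 3831 CPM in CM1, and fibroblast genes (8) to 923 to 1204 CPM and 916 to 1079 CPM. Myeloid genes (14) stood at 533 CPM in WT-MI, 289 CPM in KO-MI, 150 CPM in WT-Sham and 127 CPM in KO-Sham, and in CM1 at 581, 296, 142 and 110.0 CPM, so their sum was higher after MI and lower under the KO label in both populations. Endothelial genes (10) summed to 431 to 791 CPM against 463 to 837 CPM in CM1, mural genes (7) to 285 to 464 CPM against 204 to 412 CPM, epicardial genes (5) to 26.4 to 63.1 CPM against 21.7 to 52.2 CPM, and atrial cardiomyocyte genes (7) to 33.3 to 50.9 CPM against 35.7 to 63.5 CPM. In the MI sums of the population, 1 red blood cell gene in KO-MI and 1 mural gene in each library had no UMI, and the other genes of these lists except the atrial ones had at least 1. Cspg4, on the mural list, was the only gene of the 7 lists at least 2-fold higher than CM1 in both MI libraries. The part of these cells in the differences between libraries was not tested.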

How the data were processed

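The authors prepared snRNA-seq libraries with a 10x 3′ kit (the labels and the methods name different versions), aligned reads to mm10 with Cell Ranger (version not given in the sources used here) on a pre-mRNA reference, removed doublets with Scrublet and kept cardiomyocyte clusters in Seurat 3. The deposited matrix holds raw UMI counts of 22574 genes in 8585 nuclei with 537 to 2499 genes each, and the deposited metadata gives final labels, transferred labels, the percent of mitochondrial UMIs computed by the authors, and the authors' label transfer scores as a fraction from 0 to 1. CM1 and CM3 are merged in the final CM1. Of the metadata columns, 4 were not used here.

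UMIs were summed per population and library in Python 3.11.15 (numpy 2.4.6, scipy 1.17.1, pandas 2.3.3) and plotted with matplotlib 3.10.9. CPM has exact Poisson, shares exact Clopper-Pearson and ratios conditional binomial intervals at 95%. A gene entered a comparison where 10 UMIs were expected in the smaller sum, and a call needed a 2-fold ratio in both libraries or pairs. TMM factors came from edgeR 4.0.16 in R 4.3.3. List medians needed 3 genes. Thinning drew 1000 UMIs per nucleus. The computation was tested on simulated data.

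Members and the 37 gene lists (7 of other cells) were chosen with earlier results of these data known. Named genes are the 6 markers, the 10 highest and 10 lowest against CM1 by interval bounds over all 4 and over the MI libraries, the 5 highest and 5 lowest in each other comparison, the 3 list members with most UMIs and those past 2-fold, and genes the study discusses. Gene positions matched 98.0% of genes. With 1 library per group, no test between groups was made. Some genes that the rule names are not reported here.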

Additional observations from a re-analysis of the deposited data

Results flagged for a closer look

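The ratio of the population over CM1 ran one way in both MI libraries and the other way in both Sham libraries for 7 named genes and the sarcomere list. With 1 library per group the difference between surgeries was not tested. Log2 ratios follow in the order WT-MI, KO-MI, WT-Sham and KO-Sham.

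Of the 7 genes, 6 were lower than CM1 after MI and higher after Sham. Myh6, the alpha myosin heavy chain, stood at -1.02, -0.93, 0.11 and 0.10. Slc8a1, the sodium-calcium exchanger, stood at -0.62, -0.63, 0.40 and 0.49. Ttn, the giant spring of the sarcomere, stood at -0.21, -0.26, 0.12 and 0.17, and the median of the sarcomere list at -0.12, -0.17, 0.22 and 0.17. Akap6, an anchor of signalling enzymes at the nuclear envelope, stood at -0.15, -0.34, 0.33 and 0.51, and Fabp3, the cardiac fatty acid binding protein, at -0.26, -0.10, 0.33 and 0.10. Mid1, a microtubule-associated ubiquitin ligase, stood at -1.02, -1.46, 0.75 and 0.23. Malat1, a long RNA of the nucleus, ran in the opposite direction, at 0.23, 0.11, -0.078 and -0.065.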

How the results depend on the processing

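Of 112 counts and shares recomputed under the alternatives, 69 stayed within 1.5 times or within their interval, and 43 moved. Counts of genes are given as higher and lower. Genes against CM1 came to 159 and 239 in MI and 4 and 7 in Sham with nuclei thinned to 1000 UMIs. Without the filter 685 were higher in MI, and 234 and 117 in Sham, where higher genes then outnumbered lower ones. A fold of 1.5 gave 774 and 1058 in MI and 47 and 105 in Sham. In Sham, TMM scaling gave 6 higher, leaving out the 10% of nuclei with most UMIs 6 higher, 20 expected UMIs 11 lower, all CM5 nuclei 14 lower, and nuclei low in UMIs of other cells 4 and 11. MI against Sham came to 91 and 51 when thinned, 152 and 95 with 20 expected UMIs, 575 and 624 without the filter, which turns the balance of higher and lower, and 103 lower in nuclei low in UMIs of other cells. KO against WT after MI came to 137 higher when thinned, 73 and 30 with 20 expected UMIs and 964 and 591 without the filter. After Sham it came to 110 and 45 with TMM scaling, 39 and 12 when thinned, 12 and 16 with 20 expected UMIs and 1049 and 721 without the filter. The share of nuclei was 16.9%, 19.2%, 6.33% and 7.03% with all CM5 nuclei, and 2.70% and 3.0% in WT-Sham and KO-Sham with a score of 0.5 or more. Of 1074 recomputed list medians 146 moved, and of 164 marker ratios 25. Leaving out nuclei with a shared barcode, chosen after seeing the data, left all these counts and shares within those limits. Which property of the data moves a count was not tested. The Sham sums held 192752 and 378106 UMIs against 1171093 and 1140204 in MI. With 1 library per group, no replicate could be left out. No paired analysis was possible because the labels give no replicate numbers that groups share. Ratios over CM1 were formed within each library.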
